A study of Mus musculus with 6 samples.

Results

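The transcription factor p53 and a set of genes linked to it were compared between kidneys that had been through a longer and a shorter period without blood flow. The set is defined by gene symbol and holds 10 of the 35275 genes in the count table, each found there once: the p53 gene Trp53, its negative regulator Mdm2, the cell cycle genes Cdkn1a and Ccng1, the cell death and survival genes Bax, Phlda3 and Trp53inp1, the secreted factor Gdf15, the stress sensor Sesn2 and the lysosomal enzyme gene Glb1. The rule itself uses no measured value. The libraries hold poly-A RNA of kidneys from wild-type (WT) C57Bl/6 mice, at 28 days from an ischaemia-reperfusion injury, in which the renal blood supply is cut off and then let back. In the severe group ischaemia had lasted 35 min and in the mild group 20 min, with 3 libraries in each group. All kidneys were injured, and no uninjured kidney was analysed here. The labels state neither the ages of the mice nor which kidney was operated on, nor that each library came from its own mouse. The p-values therefore measure only the spread between these samples, which may be technical.

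As background, p53 is a transcription factor that is held at a low level because the ubiquitin ligase Mdm2 marks it for breakdown. DNA damage and other stress free it from Mdm2, and it then switches on genes that stop the cell cycle, repair damage or start cell death, and also Mdm2 itself, which closes a feedback loop. Cells that stay arrested in this way can become senescent: they keep the inhibitors p21 or p16, gain lysosomal beta-galactosidase activity and release cytokines, proteases and growth factors. In the kidney, tubule cells arrested after ischaemia are a known feature of incomplete repair and fibrosis.

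The libraries held 15240491 to 17679697 gene counts in severe kidneys and 15366602 to 17730967 in mild kidneys, and are called by their numbers in the deposited table. Severe library 14 stood furthest from the others. Within the severe group pairs of libraries differed by 14.2 to 70.0 times the sampling noise (chi-square per degree of freedom), and within the mild group by 3.67 to 5.34 times, so no pair of libraries agreed within sampling noise. The kidney label was checked against its markers: the megalin gene Lrp2 of the proximal tubule, Umod of the thick ascending limb, Slc12a3 of the distal convoluted tubule, Aqp2 of the collecting duct and Nphs1 of the podocyte all had counts in every library.

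Sequence context is shown first for Cdkn1a, the member with the largest fitted difference, and for Phlda3, the one closest to it in pattern among the members. RefSeq windows of 250 bases before and 50 bases after a transcription start were at hand for 9 of the 10 members, with 11 windows in all (GRCm38.p6). They were searched for the p53 decamer, the palindromic motif of 10 bases whose pairs p53 binds and which reads the same on both strands, and for pairs of decamers with a spacer of up to 13 bases. A decamer without mismatch stood in 5 of the 11 windows, and in 8.36% of all 32851 mouse windows. A pair without mismatch stood in 1 of the 11 windows, which was that of Cdkn1a, and in 0.0731% of all windows. With up to 1 mismatch in each decamer, a pair stood in 2 of the 11 windows, those of Cdkn1a and Ccng1, and in 2.71% of all windows. The window of Cdkn1a at the upstream of its 2 starts (chr17:29090729-29091028, plus strand) is printed with its decamers in capitals. That of Phlda3 (chr1:135765835-135766134, plus strand) held no complete decamer and is printed in lower case. Its last bases, gaacatgt, equal the start of the Cdkn1a decamer GAACATGTCT. The window ends there, so a decamer across its edge could not be found.
Cdkn1a: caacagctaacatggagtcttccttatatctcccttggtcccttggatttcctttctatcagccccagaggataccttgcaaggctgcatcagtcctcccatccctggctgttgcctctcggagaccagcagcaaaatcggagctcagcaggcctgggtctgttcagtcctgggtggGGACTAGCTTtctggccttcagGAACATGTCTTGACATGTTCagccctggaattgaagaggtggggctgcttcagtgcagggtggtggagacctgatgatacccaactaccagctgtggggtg
Phlda3: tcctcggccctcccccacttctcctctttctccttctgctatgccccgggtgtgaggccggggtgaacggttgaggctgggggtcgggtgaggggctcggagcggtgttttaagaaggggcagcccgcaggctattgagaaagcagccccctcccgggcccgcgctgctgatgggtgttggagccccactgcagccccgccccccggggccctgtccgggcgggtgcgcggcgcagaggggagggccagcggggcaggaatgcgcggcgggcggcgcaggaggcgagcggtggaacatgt
In the Cdkn1a window the long run of capitals is a pair with no spacer and 1 mismatch, 51 to 32 bases before the start (chr17:29090928-29090947), and its first decamer also forms the pair without mismatch with the decamer further upstream, across a spacer of 12 bases. The other Cdkn1a window lies at a start 2790 bases downstream and held no decamer. The remaining matches are given in capitals, 5′ to 3′ on the strand of the gene, because they mark which members carried one close to the start.
Ccng1 pair, 1 mismatch (chr11:40755462-40755481, minus strand): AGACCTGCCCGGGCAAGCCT
Mdm2 decamer (chr10:117710935-117710944, minus strand): GAACTTGCCT
Bax decamer (chr7:45467090-45467099, minus strand): AGGCAAGCTT
Trp53 decamer (chr11:69580284-69580293, plus strand): GGACTTGCCC
A match says only that these letters lie in the window, and the windows of Gdf15, Sesn2 and Glb1 had none.

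Of the 10 genes, 5 had all severe values above all mild values (Cdkn1a, Phlda3, Gdf15, Trp53inp1 and Bax), 1 had all severe values below all mild values (Glb1), and the groups overlapped for 4 (Trp53, Mdm2, Ccng1 and Sesn2). Over all 14883 tested genes 17.9% lay above and 16.1% lay below in this sense. No member passed the test: 0 of 10 had an adjusted p under 0.05 (edgeR quasi-likelihood test, Benjamini-Hochberg adjustment over all tested genes), where 0.0134% of tested genes did, 2 in number. At an unadjusted p under 0.05, 5 members were higher and 0 lower, with 15.8% of tested genes higher and 7.89% lower. The median log2 fold change was 0.39 over the members and 0.00019 over all tested genes, and 8 of the 10 were positive, as were 50.1% of tested genes. All 10 members had enough counts for the test, with 102 to 3574 counts per library. DESeq2 called 4 members, all higher (Cdkn1a, Phlda3, Gdf15 and Trp53inp1), where it called 6.88% of tested genes higher. For Gdf15 the DESeq2 adjusted p was 0.0499, at the edge of the threshold, against 0.00103 to 0.00387 for Cdkn1a, Phlda3 and Trp53inp1. Without the filter on low counts edgeR called 2 members, both higher (Phlda3 and Trp53inp1), where 0.591% of tested genes were called higher. With limma-voom and sample quality weights 5 members were called, all higher (the 4 named by DESeq2 and Trp53), where 18.2% of tested genes were called higher. The weights in that fit were 0.429, 0.178 and 4.33 for severe libraries 13, 14 and 15, and 1.32 to 1.61 for mild libraries. Its severe side thus rests mostly on severe library 15.

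**Figure D1:**
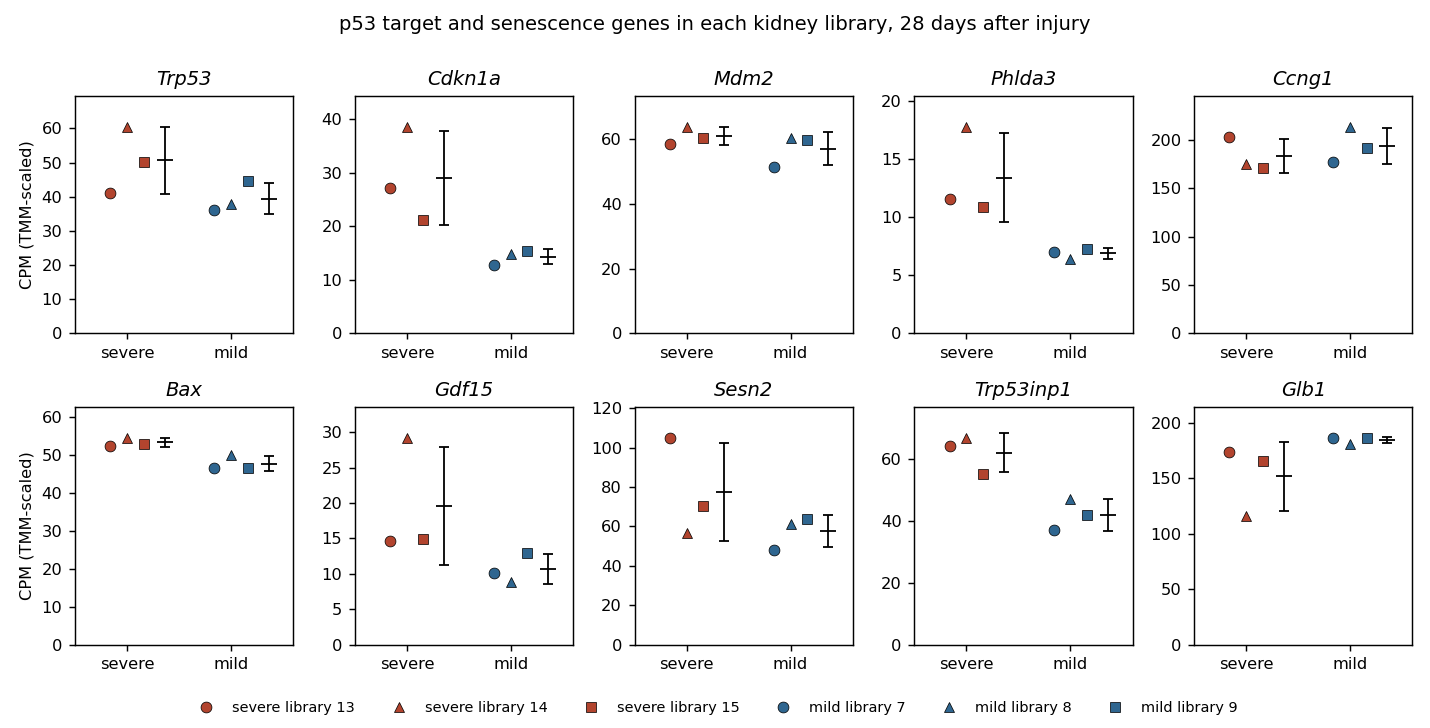
Levels of the 10 genes in each library, as CPM (read counts relative to the TMM-scaled library size), on axes that start at 0; red symbols are the 3 severe and blue symbols the 3 mild libraries, and bars give the mean and SD. The groups are apart for Cdkn1a, Phlda3, Gdf15, Trp53inp1, Bax and Glb1, and severe library 14 (red triangle) holds the highest severe value for 7 of the 10.

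The p53 gene itself (Trp53, ENSMUSG00000059552, chr11:69580359-69591873, plus strand, mm10) had 41.1, 60.5 and 50.2 CPM in severe libraries 13, 14 and 15, against 35.98, 37.8 and 44.5 CPM in mild libraries 7, 8 and 9. CPM is the read count scaled to the TMM-adjusted size of the library. Severe libraries 14 and 15 lay above all mild libraries, and severe library 13 lay below mild library 9, so the groups overlapped. Its log2 fold change was 0.36 ± 0.15 (SE; 95% interval 0.02 to 0.71; edgeR adjusted p = 0.198). It was 0.50 without severe library 13, where the adjusted p was 0.0268 (range over all 16 alternatives 0.0135 to 0.422), and 0.21 without severe library 14. With library totals in place of TMM as the scaling it was 0.55; that scaling moved the values of all genes by a median of 0.17. In whole-kidney RNA, a change in the number of cells of a type and a change in RNA per cell cannot be told apart, here or for any gene that follows.

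Mdm2 (ENSMUSG00000020184), the ubiquitin ligase that both restrains p53 and is switched on by it, had 58.6, 63.8 and 60.3 CPM in severe libraries 13, 14 and 15 and 51.3, 60.2 and 59.6 CPM in mild libraries 7, 8 and 9. Apart from mild library 7, the values lay within a narrow band shared by both groups. Its log2 fold change of 0.09 ± 0.09 had a 95% interval from -0.11 to 0.29 (edgeR adjusted p = 0.504), which on the linear scale is 0.93-fold to 1.23-fold. It ranged from 0.03 without mild library 7, through 0.06 without severe library 14, to 0.14 without mild library 8, and was 0.27 with library totals. This does not show that Mdm2 was equal in the groups.

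Cdkn1a (ENSMUSG00000023067, chr17:29090979-29100722, plus strand) encodes p21, the inhibitor of cyclin-dependent kinases through which p53 arrests the cell cycle. In severe libraries 13, 14 and 15 it reached 27.1, 38.7 and 21.3 CPM, against 12.8, 14.8 and 15.4 CPM in mild libraries 7, 8 and 9. Every severe library was above every mild one, and the lowest severe library, 15, was above the highest mild library, 9. The mean was 29.0 ± 8.85 CPM in severe and 14.4 ± 1.37 CPM in mild kidneys (SD, n = 3 each). The fitted log2 fold change was 1.02 ± 0.21, a 2.02-fold difference with a 95% interval from 1.44 to 2.83, and it did not pass over all genes (edgeR adjusted p = 0.0867). The adjusted p was 0.0194 without severe library 13 and 0.0166 without severe library 14 (range over 16 alternatives 0.00103 to 0.319). Without severe library 14 the log2 fold change was 0.75, and with limma-voom and sample quality weights it was 0.63.

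Ccng1 (ENSMUSG00000020326), which encodes cyclin G1, a p53-induced protein that works with a phosphatase on Mdm2, had 204, 175 and 171 CPM in severe libraries 13, 14 and 15 and 177, 214 and 192 CPM in mild libraries 7, 8 and 9. The ranges almost coincided. The log2 fold change was -0.08 ± 0.11 (95% interval -0.35 to 0.18; edgeR adjusted p = 0.663), and its sign turned to positive, at 0.08, when library totals replaced TMM. It lay between -0.16 (without severe library 13) and -0.0024 (without mild library 8) with 1 library left out; the other values over 1.5 times away were -0.14 without mild library 7, -0.05 without severe library 14 and -0.04 without severe library 15. It was -0.05 with upper-quartile scaling and -0.16 with sample quality weights.

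Phlda3 (ENSMUSG00000041801, chr1:135766119-135769136, plus strand) encodes a small pleckstrin homology protein that blocks the survival kinase Akt and is induced by p53. Its level was 11.5, 17.8 and 10.8 CPM in severe libraries 13, 14 and 15, and 7.03, 6.35 and 7.27 CPM in mild libraries 7, 8 and 9. The groups were apart, with the mild libraries close together and severe library 14 on its own above the other severe libraries. With 13.4 ± 3.83 CPM in severe and 6.88 ± 0.481 CPM in mild kidneys (SD, n = 3 each), the log2 fold change was 0.96 ± 0.21 (1.95-fold, 95% interval 1.39 to 2.71; edgeR adjusted p = 0.0867). Its adjusted p was 0.0145 without severe library 13 and 0.0274 without severe library 14 (range over 16 alternatives 0.00312 to 0.319). Its log2 fold change was 0.70 without severe library 14.

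Trp53inp1 (ENSMUSG00000028211, chr4:11156431-11174379, plus strand), a nuclear and autophagy-linked protein that promotes p53 activity, had 64.4, 67.0 and 55.1 CPM in severe libraries 13, 14 and 15 and 36.9, 47.0 and 41.9 CPM in mild libraries 7, 8 and 9. The groups were apart, and severe library 14 stood out less than for Cdkn1a, Phlda3 or Gdf15. The fitted log2 fold change was 0.57 ± 0.11 (1.48-fold, 95% interval 1.23 to 1.78), with the lowest p of the 10 genes before adjustment (0.00115; edgeR adjusted p = 0.0867). It lay between 0.49 and 0.66 with any 1 library left out. The adjusted p was 0.0220 without severe library 13 and 0.0328 without severe library 14 (range over 16 alternatives 0.00387 to 0.319).

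Bax (ENSMUSG00000003873), the pore-forming effector of mitochondrial cell death, had 52.4, 54.5 and 52.9 CPM in severe libraries 13, 14 and 15, against 46.5, 49.9 and 46.6 CPM in mild libraries 7, 8 and 9. All severe values lay above all mild values, yet the gap was small and the severe libraries were almost alike. The log2 fold change was 0.16 ± 0.07 (1.12-fold, 95% interval 0.999 to 1.25; edgeR adjusted p = 0.214), and 0.33 with library totals as the scaling.

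Gdf15 (ENSMUSG00000038508, chr8:70629393-70632456, minus strand), a secreted cytokine of the TGF-beta superfamily that both p53 and the stress factor ATF4 can induce, had 14.6, 29.2 and 14.9 CPM in severe libraries 13, 14 and 15, against 10.1, 8.86 and 12.97 CPM in mild libraries 7, 8 and 9. The groups did not overlap, but severe libraries 13 and 15 were only a little above mild library 9, and severe library 14 held about as much as both of them together. Its log2 fold change was 0.88 ± 0.29 (1.84-fold, 95% interval 1.16 to 2.93; edgeR adjusted p = 0.144). It was 0.47 without severe library 14 (adjusted p = 0.111) and 1.06 without severe library 13 (adjusted p = 0.0358; range over 16 alternatives 0.0194 to 0.373). With limma-voom and sample quality weights it was 0.56.

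Sesn2 (ENSMUSG00000028893), a stress-induced inhibitor of the growth kinase complex mTORC1 and likewise a target of both p53 and ATF4, showed another order of libraries. It had 105, 56.5 and 70.6 CPM in severe libraries 13, 14 and 15, and 48.2, 61.1 and 63.6 CPM in mild libraries 7, 8 and 9. Severe library 13 was the highest of all and severe library 14 lay within the mild range. The fitted log2 fold change was 0.42 ± 0.22 (95% interval -0.08 to 0.93; edgeR adjusted p = 0.264), 0.15 without severe library 13 and 0.61 without severe library 14.

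Glb1 (ENSMUSG00000045594, chr9:114401076-114474376, plus strand) encodes the lysosomal beta-galactosidase whose activity is stained as a mark of senescent cells. It had 174, 116 and 166 CPM in severe libraries 13, 14 and 15, against 186, 181 and 187 CPM in mild libraries 7, 8 and 9. It was the one member below the mild range in every severe library, and most of the gap came from severe library 14. The mean was 152 ± 31.2 CPM in severe and 185 ± 2.96 CPM in mild kidneys (SD, n = 3 each). The log2 fold change was -0.28 ± 0.15 (95% interval -0.63 to 0.07; edgeR adjusted p = 0.277), and -0.12 without severe library 14. It was -0.13 with library totals and -0.17 with sample quality weights. Glb1 overlaps the gene Tmppe on the same strand over 10106 bases in the table, and Tmppe had 26.1% as many counts as Glb1, so reads on the shared stretch are uncertain for both.

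**Figure D2:**
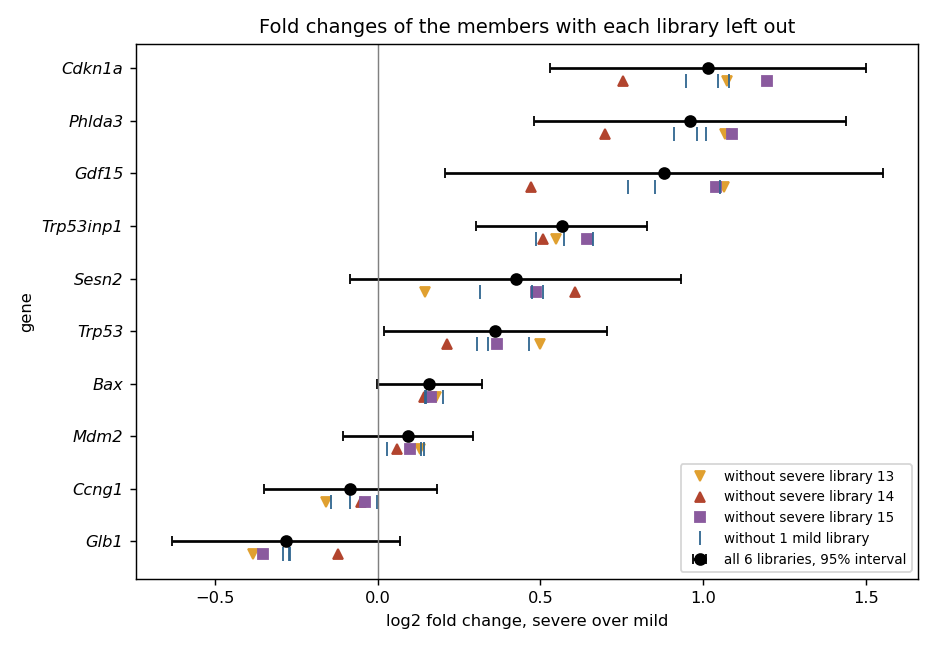
Fitted log2 fold change of severe over mild for the 10 genes, black circles with 95% intervals from all 6 libraries, and coloured marks for the same fit with 1 library left out. The intervals of Cdkn1a, Phlda3, Gdf15, Trp53inp1 and Trp53 lie above 0, and leaving out severe library 14 takes Cdkn1a to 0.75, Phlda3 to 0.70 and Gdf15 to 0.47.

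The severe libraries were not alike in these genes. Severe library 14 held the highest severe value for 7 of the 10 members and severe library 13 for 3 (Ccng1, Sesn2 and Glb1), while over all tested genes 41.5% and 36.6% were highest in these libraries. Severe library 15 was the lowest severe library for Cdkn1a, Phlda3, Trp53inp1 and Ccng1. Without severe library 13, 5 members passed, all higher (Trp53, Cdkn1a, Phlda3, Gdf15 and Trp53inp1), where 13.8% of tested genes were called higher. Without severe library 14, 3 members passed, all higher (Cdkn1a, Phlda3 and Trp53inp1), where 2.4% of tested genes were called higher. No member passed without severe library 15 or without any 1 mild library, and there the lowest adjusted p of a member lay between 0.209 and 0.319.

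Per kilobase of listed gene length, Glb1, Bax and Ccng1 were the most abundant members, and Phlda3 was the least abundant in both groups. Mean levels in severe kidneys were 63.4, 61.3 and 52.2 CPM per kilobase for Glb1, Bax and Ccng1, followed by Sesn2 at 22.3, Mdm2 at 19.4, Trp53 at 15.5, Cdkn1a at 15.2, Gdf15 at 12.7, Trp53inp1 at 11.4 and Phlda3 at 9.32 CPM per kilobase. In mild kidneys Glb1 stood at 77.1, Ccng1 at 55.4 and Bax at 54.9 CPM per kilobase, and the rest ran from Mdm2 at 18.2 through Sesn2 at 16.6, Trp53 at 12.03, Trp53inp1 at 7.72, Cdkn1a at 7.51 and Gdf15 at 6.90 to Phlda3 at 4.80 CPM per kilobase. The ranges of neighbours overlapped among the severe libraries for Glb1 and Bax, for Sesn2 and Mdm2, and for each step from Trp53 down to Phlda3. Among the mild libraries they overlapped for Ccng1 and Bax, for Mdm2 and Sesn2, and for Trp53inp1, Cdkn1a and Gdf15. In these terms Cdkn1a stood level with Trp53 in severe kidneys and below it, with ranges apart, in mild kidneys.

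The libraries ordered the other members in different degrees like Cdkn1a. Over the 6 libraries the Pearson correlation of log2 CPM with Cdkn1a was 0.97 for Phlda3, 0.95 for Trp53inp1, 0.92 for Gdf15, 0.88 for Bax and 0.81 for Trp53. It was 0.68 for Mdm2, 0.39 for Sesn2, -0.24 for Ccng1 and -0.86 for Glb1. These values describe 6 points that fall into 2 groups and share their libraries and scaling. High values were common: among the other 14882 tested genes, Phlda3 ranked 52, Trp53inp1 220, Gdf15 522, Bax 1044 and Trp53 2272 from the highest. The 5 genes most like Cdkn1a among the other 14882 tested were Vsig10 (0.99), Rgs4 (0.99), the macrophage lipid receptor Trem2 (0.99), the gap junction gene Gjc1 (0.99) and Tmem71 (0.99), picked as the highest of all.

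Among 39 further genes known as p53 targets, of which 38 had enough counts, 0 passed over all genes. At an unadjusted p under 0.05, 8 were higher and 1 lower. In every severe library 15 lay above the mild range and 1 lay below it, and 22 overlapped. For this list and those that follow, the shares of all tested genes were 15.8% higher and 7.89% lower at that p. Outside the mild range they were 17.9% above and 16.1% below. The median log2 fold change was 0.15. The cell death gene Bbc3, which encodes Puma, had 7.10, 10.5 and 7.69 CPM in severe libraries 13, 14 and 15 and 4.62, 3.95 and 5.70 CPM in mild libraries 7, 8 and 9, a log2 fold change of 0.83 ± 0.21. Log2 fold changes were 0.61 ± 0.16 for the growth arrest gene Gadd45a, 0.34 ± 0.09 for the heparan sulphate sulphatase Sulf2 and 1.58 ± 0.45 for the TNF receptor family gene Eda2r (edgeR adjusted p from 0.104 to 0.114 for these 4). Eda2r was scarce, with 1.69, 3.83 and 1.41 CPM in severe libraries 13, 14 and 15 and 0.896, 0.599 and 0.824 CPM in mild libraries 7, 8 and 9. Of the list 28 genes had a positive and 10 a negative log2 fold change. Further targets are named after their values were seen. Some lay close to the all-gene median: Zmat3 at 0.02 ± 0.10, the p53 phosphatase Ppm1d at 0.10 ± 0.10, the exonuclease gene Aen at -0.06 ± 0.10 and the DNA repair gene Xpc at -0.02 ± 0.08. Ppm1d still had all severe values above all mild values. Others stood higher: Apaf1 at 0.73 ± 0.23, Btg2 at 0.61 ± 0.23, and Pmaip1 at 0.73 ± 0.32 with overlapping groups. Dcxr, an enzyme of carbonyl and sugar reduction, was the lower one, at -0.58 ± 0.21, and is named after its values were seen.

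Genes that act on p53 or signal DNA damage gave 0 of 29 tested genes past the threshold, 3 higher and 1 lower at an unadjusted p under 0.05, and a median log2 fold change of 0.08. The lower one was Hipk2, a kinase that phosphorylates p53, with 29.6, 26.5 and 24.5 CPM in severe libraries 13, 14 and 15 and 47.1, 39.6 and 35.3 CPM in mild libraries 7, 8 and 9. All severe values lay below all mild ones (log2 fold change -0.60 ± 0.12; edgeR adjusted p = 0.0867). The lysine methyltransferase Setd7 stood at 0.50 ± 0.18, the checkpoint kinase Chek1 at 0.73 ± 0.29 and Mdm4, the partner of Mdm2, at 0.25 ± 0.11.

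Paralogs of the members were set beside them because related genes can differ in their link to p53. Of 16, 14 had enough counts, 0 passed over all genes, and 7 lay above and 2 below the mild range in every severe library, with a median log2 fold change of 0.24. The p27 gene Cdkn1b had a log2 fold change of 0.23 ± 0.07 and the p57 gene Cdkn1c one of 0.05 ± 0.11, where Cdkn1a stood at 1.02. Beside Phlda3 at 0.96, Phlda1 stood at 0.48 ± 0.22 and Phlda2 at -0.03 ± 0.23. Beside Bax at 0.16, the other pore-forming genes stood at 0.59 ± 0.16 (Bak1) and 0.70 ± 0.18 (Bok). Ccng2 was at 0.39 ± 0.13, and Mdm4 at 0.25 ± 0.11. Sesn1 was at 0.25 ± 0.10 and Sesn3 at 0.15 ± 0.32. Trp53inp2 stood at -0.15 ± 0.12. The p53 relative Trp63 was scarce, with 145 counts over all 6 libraries, and stood at 0.45 ± 0.38. The beta-galactosidase-like genes Glb1l at -0.36 ± 0.14 and Glb1l2 at -0.32 ± 0.15 were below the mild range in every severe library, as Glb1 was. Trp73, with 11 counts in all, and Glb1l3, with 1, were too scarce for a test.

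**Figure D3:**
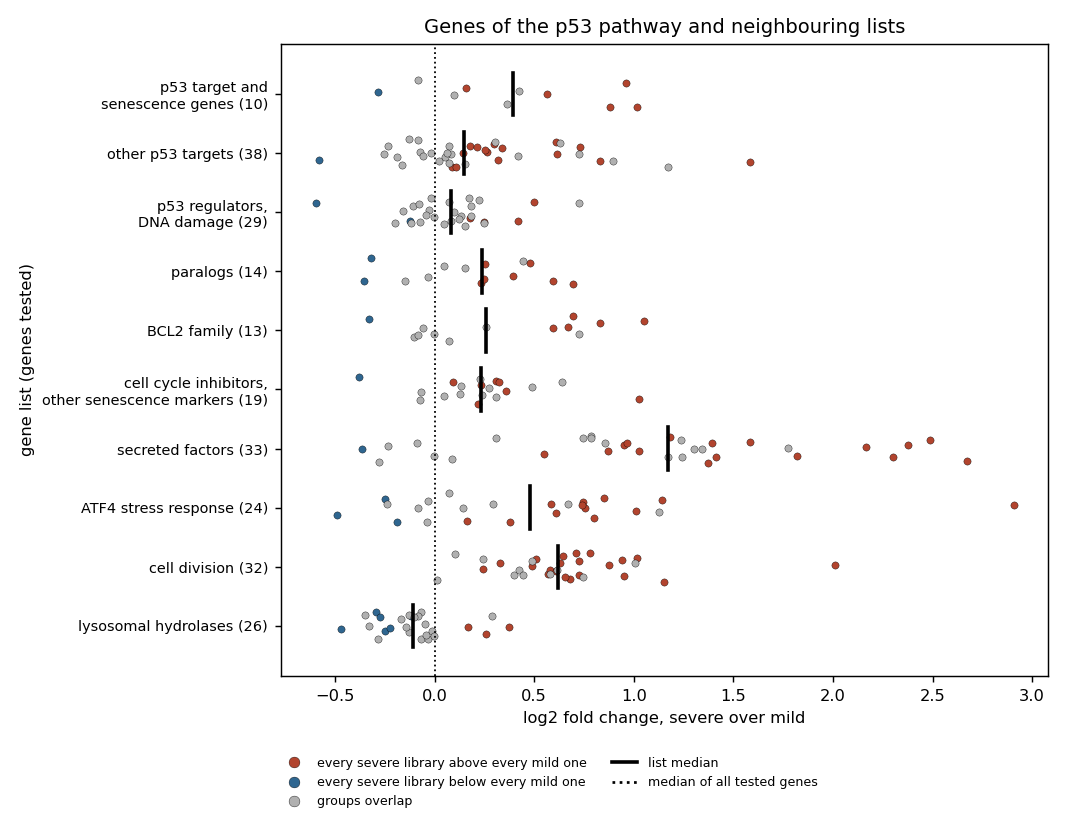
Fitted log2 fold change of severe over mild for every tested gene of the 10-gene set and of 9 lists around it, with the list median as a black bar and the median of all tested genes as a dotted line. The medians run from -0.11 for lysosomal hydrolases to 1.17 for secreted factors, with 0.39 for the 10-gene set.

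Within the BCL2 family, which decides whether mitochondria release cell death factors, 0 of 13 tested genes passed over all genes, and 5 were higher and 1 lower at an unadjusted p under 0.05 (median 0.26). Bmf, which binds and blocks survival members of the family, had 22.3, 33.0 and 25.9 CPM in severe libraries 13, 14 and 15, against 15.3, 12.6 and 11.3 CPM in mild libraries 7, 8 and 9. Its log2 fold change was 1.05 ± 0.17 (edgeR adjusted p = 0.0867). The related Bcl2l11, which encodes Bim, stood at 0.67 ± 0.14, ahead of Bok and of Bbc3 by p. Bid, at -0.33 ± 0.14, was the lower one and is named after its values were seen.

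The list of cell cycle inhibitors and other markers of senescence also holds cyclins and cyclin-dependent kinases, which drive the cycle. Its counts are therefore not counts of inhibitors alone. In it 0 of 19 tested genes passed over all genes, and 5 were higher and 1 lower at an unadjusted p under 0.05 (median 0.23). The lower one was the cyclin gene Ccnd1, at -0.38 ± 0.14, named after its values were seen. Cdkn2b, which encodes the p15 inhibitor, had 2.15, 4.44 and 2.89 CPM in severe libraries 13, 14 and 15 and 1.65, 1.497 and 1.51 CPM in mild libraries 7, 8 and 9, a log2 fold change of 1.02 ± 0.31. Cdkn1b followed at 0.23 ± 0.07, the chromatin protein gene Hmgb2 at 0.36 ± 0.11 and the cyclin-dependent kinase gene Cdk4 at 0.31 ± 0.10 (edgeR adjusted p from 0.123 to 0.148 for these 4). Lmnb1, the nuclear lamin whose loss is used as a mark of senescence, stood at 0.64 ± 0.24 with overlapping groups and was named after its values were seen. Cdkn2a, the gene of p16 and of the Mdm2 inhibitor Arf, had 10 counts over the severe libraries and 5 over the mild ones, too few for a test, and is named after its counts were seen.

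Secreted factors linked to senescence had the highest median of the 9 lists in the plot of pathway lists, 1.17 over 33 tested genes of 41, with 0 past the threshold over all genes and 21 higher and 0 lower at an unadjusted p under 0.05. The elastase Mmp12 had 23.1, 24.0 and 12.3 CPM in severe libraries 13, 14 and 15, against 3.52, 4.43 and 3.43 CPM in mild libraries 7, 8 and 9. The protease inhibitors Timp1 and Timp2 stood at log2 fold changes of 2.17 ± 0.47 and 1.18 ± 0.26 and the cytokine Tgfb1 at 0.95 ± 0.21 (edgeR adjusted p from 0.0768 to 0.0881 for these 4). These genes are also made by macrophages and fibroblasts, so the list does not mark senescent cells alone. Il6, the best known member of this secretome, had 15 counts over the severe libraries and 4 over the mild ones, and 14 of the 15 came from severe library 14. It is named after its counts were seen.

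Gdf15 and Sesn2 also answer to ATF4, the transcription factor of the integrated stress response. Of 24 tested genes of that response, 0 passed over all genes, 13 were higher and 0 lower at an unadjusted p under 0.05, and the median log2 fold change was 0.48. Ddit4, an inhibitor of mTORC1 like Sesn2, had 43.4, 58.6 and 44.2 CPM in severe libraries 13, 14 and 15 and 28.0, 26.6 and 26.5 CPM in mild libraries 7, 8 and 9 (log2 fold change 0.85 ± 0.12). The pseudokinase Trib3 stood at 1.14 ± 0.29 and the asparagine synthetase gene Asns at 0.80 ± 0.21. The cystine transporter Slc7a11 was scarce, with 1.34, 1.07 and 0.676 CPM in severe libraries 13, 14 and 15, against 0, 0.180 and 0.206 CPM in mild libraries 7, 8 and 9. The adjusted p of these 4 lay between 0.0867 and 0.103 (edgeR). Atf4 itself stood at -0.04 ± 0.10 and Ddit3, which encodes CHOP, at 0.07 ± 0.12; both were chosen after their values were seen.

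Genes of DNA replication and mitosis, which p21 shuts down through the DREAM complex, stood on the same side as Cdkn1a. All 32 tested genes had a positive log2 fold change, 21 lay above the mild range in every severe library, 24 were higher at an unadjusted p under 0.05, and 0 passed over all genes (median 0.62). The spindle gene Nusap1 had 10.4, 9.40 and 9.41 CPM in severe libraries 13, 14 and 15 and 5.93, 6.29 and 7.48 CPM in mild libraries 7, 8 and 9. The mitotic kinase Aurkb stood at 1.02 ± 0.27, the ribonucleotide reductase gene Rrm2 at 0.68 ± 0.20 and the phosphatase gene Cdc25c at 2.01 ± 0.53, the last on 73 counts over all 6 libraries (edgeR adjusted p from 0.100 to 0.117 for these 4). In whole-kidney RNA, dividing cells and cells with p21 can be different cells.

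Lysosomal hydrolases and partners of Glb1 had a median log2 fold change of -0.11 over 26 tested genes, with 2 higher and 2 lower at an unadjusted p under 0.05 and 0 past the threshold over all genes. Of the 26, 22 had a negative and 4 a positive log2 fold change, where 50.1% of all tested genes were positive. In every severe library 3 lay above the mild range and 6 below it. Hexa, a subunit of beta-hexosaminidase, stood at 0.37 ± 0.13 and the sulphatase gene Arsa at 0.26 ± 0.10. The sulphatase gene Galns stood at -0.47 ± 0.17 and the galactosylceramidase gene Galc at -0.30 ± 0.13 (edgeR adjusted p from 0.155 to 0.208 for these 4). Ctsa, which encodes the protective protein that binds beta-galactosidase, stood at -0.07 ± 0.11, chosen after its values were seen. Glb1 at -0.28 lay below the median of this list.

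Markers of several cell types differed beside the members. The 15 macrophage markers were all higher at an unadjusted p under 0.05, and their summed level was 688 to 1358 CPM in severe and 378 to 451 CPM in mild libraries. The 12 fibroblast markers summed to 1645 to 5243 CPM in severe and 789 to 974 CPM in mild libraries, with 12 of 12 higher in the same sense. The 12 injured tubule markers, 11 of them higher, summed to 3103 to 10628 CPM in severe and 2292 to 3022 CPM in mild libraries. Of these 12, 4 lay above the mild range in every severe library and the groups overlapped for 8. Spp1 alone, named after its values were seen, gave 2294 to 8256 CPM of the severe sums. Proximal tubule markers, with 5 of 13 lower and 0 higher, summed to 17569 to 34560 CPM in severe and 39545 to 41981 CPM in mild libraries. All 13 had a negative log2 fold change, and 11 lay below the mild range in every severe library. The 12 markers of the distal nephron and collecting duct, 3 lower, summed to 4779 to 7924 CPM in severe and 8436 to 8688 CPM in mild libraries. Of these, 4 lay below the mild range in every severe library. No marker of these lists was at 0 over all libraries. The part of these cell types in the values of Cdkn1a, Phlda3, Gdf15, Trp53inp1 and Glb1 was not tested.

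Sums of the other lists overlapped between the groups. Endothelial markers lay at 686 to 830 CPM in severe and 656 to 751 CPM in mild libraries, podocyte markers at 429 to 499 CPM in severe and 483 to 493 CPM in mild libraries, and T and B lymphocyte markers at 11.8 to 18.8 CPM in severe and 8.82 to 14.6 CPM in mild libraries. Severe library 13 had the lowest sums of macrophage, fibroblast and injured tubule markers among severe libraries, at 688, 1645 and 3103 CPM, against 863, 2744 and 5773 CPM in severe library 15. Trp53, Mdm2, Bax and Gdf15 were highest in severe library 14 and lowest in 13, the order of these sums. Sesn2 and Glb1 were highest in severe library 13 and lowest in 14, the order of the proximal tubule sums, which were 34560, 17569 and 30909 CPM in severe libraries 13, 14 and 15. Cdkn1a, Phlda3 and Trp53inp1 were highest in severe library 14 and lowest in 15, and Ccng1 was highest in 13 and lowest in 15. Of the macrophage markers, Cd68 had the order of Cdkn1a, at 14.7, 20.7 and 14.1 CPM in severe libraries 13, 14 and 15. The other macrophage markers were lower in 13 than in 15. All these orders rest on 3 libraries. Some rest on close values in severe libraries 13 and 15: 14.6 and 14.9 CPM for Gdf15, 52.4 and 52.9 CPM for Bax, and 11.5 and 10.8 CPM for Phlda3. Any link of these orders to cell types was not tested.

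**Figure D4:**
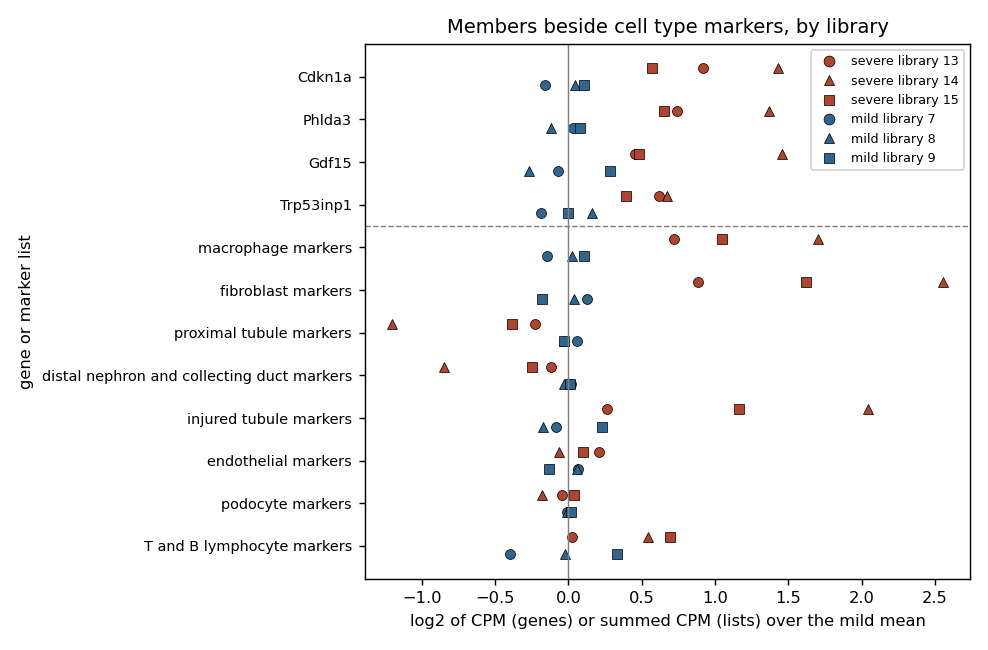
Level of Cdkn1a, Phlda3, Gdf15 and Trp53inp1 and summed level of 8 marker lists in each library, as log2 over the mean of the mild libraries; red symbols are severe and blue symbols mild libraries. Severe library 14 (red triangle) lies furthest from the mild libraries for macrophage, fibroblast, tubule and injury markers and highest for the 4 genes, while severe library 13 (red circle) lies above severe library 15 (red square) for Cdkn1a, Phlda3 and Trp53inp1 and below it for Gdf15 and for the macrophage, fibroblast and injured tubule lists.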

How the data were processed

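Per the labels' protocols, TRIzol-extracted, DNase-treated kidney RNA was selected on poly-T beads, and random hexamers primed the cDNA (NEBNext Ultra RNA kit). Tools named in the submitters' processing notes are TopHat2 2.0.12, Bowtie2 2.2.3 and HTSeq 0.6.1, with mm10 as the build. The notes used here give no roles, no strand setting and no annotation release. The authors deposited raw read counts for Ensembl genes, which sum to another total in each of the 6 libraries, and a gene length in bases, from which levels per kilobase were computed. The number of columns of per-sample values left out was 0. A column's name shows its group through the minutes of ischaemia but not which sample it is, so libraries were used as unpaired replicates.

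Severe and mild libraries were compared in edgeR 4.0.16 (R 4.3.3) by its quasi-likelihood F test with robust dispersion, after filterByExpr and TMM scaling. The 14883 genes tested were adjusted together (Benjamini-Hochberg), and 0.05 was the threshold. Each standard error was obtained from the log2 fold change and its F statistic, and 95% intervals use the moderated degrees of freedom. Correlations with Cdkn1a used log2 CPM with a prior count of 2. DESeq2 1.42.0, limma-voom (limma 3.58.1), other scalings and filters and the removal of each library were run as alternatives. The procedure was tested on simulated counts with the same dispersion for every gene in both groups and no outlying library. That test therefore does not cover the unequal spread of the severe and mild libraries. The members and the 19 gene lists (members, pathways, paralogs, cell type markers) were chosen with earlier results of these data known; 352 of the 354 list entries matched a table symbol, some through an older symbol. Genes named are all members, all tested paralogs, the up to 4 genes of each pathway list with the smallest p and the 5 most like Cdkn1a; others are marked as chosen after their values were seen. Of marker lists, only defining markers and Spp1 are named. Promoter windows are from RefSeq (GRCm38.p6). Figures were drawn with matplotlib 3.10.9.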

Additional observations from a re-analysis of the deposited data

How the results depend on the processing

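The fitted direction of each member held in 159 of 160 refits (10 members under 16 alternatives); Ccng1 turned to 0.0797 with library totals as the scaling. In 19 of the 160 a member crossed to an adjusted p under 0.05, each time higher. The count of members past the threshold was 0 in the full fit, 2 without a filter on low counts (Phlda3 and Trp53inp1; 0.591% of genes tested there were called higher), 4 with DESeq2 and 5 with limma-voom and sample quality weights, which called 18.2% of genes higher. It ranged from 0 to 5 with 1 library left out. The count of all genes past the threshold, 2 in the full fit, was 1 with library totals, 146 without a filter, 1160 with DESeq2, 5041 with quality weights and 2 with limma-voom alone. It ranged from 0 to 3269 with 1 library left out. Among genes called, the share higher was 88.3% with DESeq2, 53.7% with quality weights, 64.0% without severe library 13 and 72.1% without severe library 14. The members' median of 0.39 was 0.56 with library totals and ranged from 0.31 to 0.49 with 1 library left out, and the members with separate groups, 6 with all libraries (34.0% of all tested genes), numbered from 6 to 9, the 9 being without severe library 13, where 56.6% of tested genes had separate groups. Fits without severe library 13, 14 or 15 rest on 2 severe libraries, and the fit with quality weights rests mostly on severe library 15. The cause of these differences was not tested. No paired analysis was possible because the groups share no replicate numbers. Precision is limited by 3 libraries a group, and in 73.2% of genes the severe libraries were more spread than the mild ones. Depth was too low for a test of Cdkn2a, Il6, Trp73 and Glb1l3.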

Other observations

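Some growth factors of the senescence secretome were too scarce for a test but had more counts in severe kidneys. Areg, a ligand of the EGF receptor, had 5, 27 and 12 counts in severe libraries 13, 14 and 15 and 1, 3 and 3 counts in mild libraries 7, 8 and 9. Fgf7, a fibroblast-derived growth factor for epithelium, had 7, 14 and 11 counts in severe libraries 13, 14 and 15 and 3, 2 and 1 counts in mild libraries 7, 8 and 9. Both were chosen after their values were seen.

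Haemoglobin and other red blood cell genes summed to 51.3 CPM in severe library 13, against 7.26 and 6.89 CPM in severe libraries 14 and 15 and 4.69, 11.3 and 1.92 CPM in mild libraries 7, 8 and 9. Severe library 13 was also the library with the highest Sesn2, at 105 CPM. Any link between these values was not tested.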
